A study of Mus musculus with 12 samples.

Results

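The 9 genes described here are 4 genes of the thick ascending limb, *Umod*, *Slc12a1*, *Kcnj1* and *Bsnd*, and 5 genes of the distal convoluted tubule, *Slc12a3*, *Trpm6*, *Pvalb*, *Calb1* and *Wnk4*. They were chosen by name as genes of these neighbouring nephron segments, with earlier results of these data known. They are 9 of the 35275 genes in the table of read counts. Each had 1 row in the table, and all 9 passed the filter on low counts in each of the 3 comparisons. RNA came from unsorted kidney tissue of 12 C57BL/6J mice at 6 months of age. Wild-type (WT), RC/RC and double-mutant RC/RC:*Casp1*KO groups held 4 mice each, 2 of them female and 2 male. RC/RC mice carry on both copies of *Pkd1*, the gene most often mutated in autosomal dominant polycystic kidney disease, a knock-in missense allele that weakens polycystin-1 and gives slowly growing cysts. RC/RC:*Casp1*KO mice carry the same *Pkd1* alleles and also lack Caspase-1, the inflammasome protease, in the whole body. The knockout is a single TALEN-made line with a small deletion that removes the active-site cysteine codon and a splice donor. There was no group that lacked *Casp1* on a WT *Pkd1* background. The question was how genes of these segments differed between cystic and WT kidneys, and between cystic kidneys with and without Caspase-1.

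The thick ascending limb reabsorbs salt without water, and by doing so it drives the uptake of calcium and magnesium between its cells and the concentration of urine. The distal convoluted tubule follows it, takes up sodium chloride through a thiazide-sensitive cotransporter under the control of WNK kinases, and sets the final excretion of magnesium. Several of the genes are not exclusive to a segment: *Kcnj1* and *Bsnd* are also used further down the nephron, and *Calb1* is abundant in the connecting tubule as well.

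Libraries held between 18019819 and 24869454 reads assigned to genes. Reads of mitochondrial genes took 7.78% to 12.1% of a library. Mice are named by number within a group, in the order of the columns of the table, and the number is only a name. Mice 1 and 2 nonetheless stood apart from mice 3 and 4 in some genes of all 3 groups: *Slc22a6*, an organic anion transporter of the proximal tubule, was at 241 and 398 against 1096 and 1006 CPM in WT, at 212 and 184 against 622 and 887 CPM in RC/RC and at 274 and 278 against 988 and 856 CPM in knockout mice. Sex is given for the groups but was not assigned to single columns, and no term for this division entered the fits. The 4 mice of a group were separate animals, with males and females analysed together, so any difference between the sexes is part of the spread within a group. Levels are given as CPM, counts relative to library size, with library sizes scaled by TMM over all 12 mice, and levels of different genes are compared as CPM per kilobase of gene length (FPKM).

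*Casp1* served as a check of the labels. It was read at 1.29 to 2.05 CPM in WT mice, at 2.62 to 4.24 CPM in RC/RC mice and at 0.38 to 1.06 CPM in RC/RC:*Casp1*KO mice, so the knockout mice lay below every other mouse. *Casp1* was significantly elevated in RC/RC relative to WT mice (log2 fold change 1.21 ± 0.25 SE, adjusted p = 0.0142) and lower in RC/RC:*Casp1*KO than in RC/RC mice (-2.35 ± 0.32, adjusted p = 0.00514). Transcripts of *Pkd1*, whose allele is a missense change, were at 40.2 to 67.5 CPM in WT and 46.4 to 67.4 CPM in RC/RC mice and did not pass the test in any comparison. All adjusted p-values are from the edgeR quasi-likelihood test with Benjamini-Hochberg adjustment over all genes tested, and a gene was called at an adjusted p under 0.05.

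The stretch upstream of the start site is shown for *Slc12a3* and *Wnk4*, the 2 genes called in both RC/RC against WT and RC/RC:*Casp1*KO against RC/RC. The bases run from 46 to 17 before the RefSeq start, on the + strand of GRCm38.p6, at chr8:94329162-94329191 for *Slc12a3* and chr11:101260521-101260550 for *Wnk4*, and the capitals mark a TATAAA match.
Slc12a3: gcctcctcccagccTATAAAgccaccctca
Wnk4: ggggcggagccgggggcgggtcgcggggca
The window from 250 bases before to 50 bases after the start was searched on both strands. Of the motifs searched, 2 are reported here, the TATA box and part of the site of estrogen-related receptors. RefSeq windows were found for 7 of the 9 genes, all but *Bsnd* and *Calb1*. The *Slc12a3* window held TATAAA at position -32, a motif found in 13.6% of 32851 promoters. The motif searched for estrogen-related receptors was AAGGTCA, found in 4.72% of promoters and in none of the members' windows. *Wnk4* held neither of these.

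In WT kidneys *Umod*, which encodes uromodulin, the most abundant protein of normal urine, stood far above the other 8 genes, at 1597 ± 368 FPKM (SD, n = 4). It was the 21st most abundant gene of the kidney by FPKM and took 0.374% ± 0.0805 of the reads. The salt cotransporters *Slc12a3* (296 ± 45.7 FPKM) and *Slc12a1* (287 ± 60.1 FPKM) followed, at levels that did not differ beyond their spread. *Calb1* (116 ± 43.6 FPKM) and *Kcnj1* (83.5 ± 37.0 FPKM) came next and also lay within each other's spread. *Wnk4* was at 45.5 ± 1.54 FPKM. *Pvalb* (25.7 ± 9.54 FPKM) and *Bsnd* (23.9 ± 4.54 FPKM) were alike in level, and *Trpm6* was lowest at 2.21 ± 0.74 FPKM. In RC/RC kidneys the cotransporters no longer stood side by side, with *Slc12a1* at 187 ± 69.5 FPKM and *Slc12a3* at 72.6 ± 35.3 FPKM. With the *Casp1* knockout they were at 264 ± 69.1 and 198 ± 75.6 FPKM. Spread between mice was far from equal across the genes, as *Wnk4* had a coefficient of variation of 3.39% among WT mice and *Kcnj1* 44.3%.

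**Figure D1:**
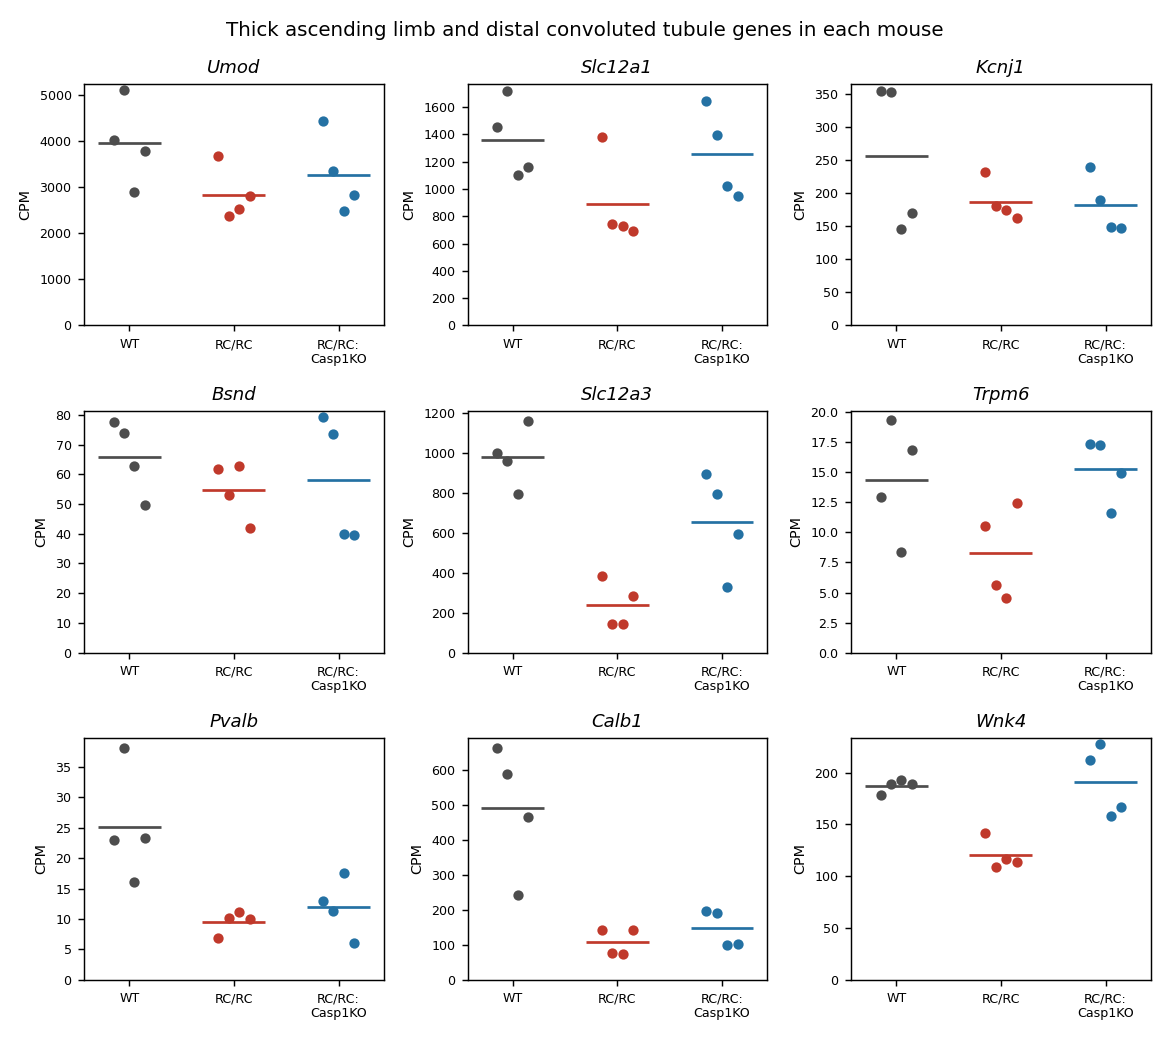
CPM of each of the 9 genes (y axes, linear from 0) in the 4 WT, 4 RC/RC and 4 RC/RC:Casp1KO mice (points, in order of mouse number from left to right), with the group mean as a line. RC/RC points lie below all WT points for Slc12a3, Pvalb, Calb1 and Wnk4, while the groups overlap for the 4 thick ascending limb genes and for Trpm6.

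In RC/RC relative to WT kidneys, 4 of the 9 genes changed and all 4 were lower: *Calb1*, *Slc12a3*, *Pvalb* and *Wnk4*, all from the distal convoluted tubule list. None of the 4 thick ascending limb genes passed the test, which held no term for the division of mice seen in *Slc22a6*. Of the 15243 genes tested, 12.9% were called, 9.76% higher and 3.18% lower. The 4 genes were also those whose groups did not overlap, as the RC/RC mice lay below all WT mice. That held for 7.06% of all genes tested, and groups did not overlap in either direction for 19.6%. The median log2 fold change was -1.40 over the 5 distal convoluted tubule genes and -0.46 over the 4 thick ascending limb genes, beside -0.02 over all genes. In RNA of unsorted tissue, fewer cells of a type and less RNA per cell cannot be told apart.

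*Slc12a3* encodes the thiazide-sensitive sodium-chloride cotransporter, the salt entry step of the distal convoluted tubule. It was read at 1002, 958, 793 and 1161 CPM in WT mice 1 to 4, and at 384, 146, 144 and 286 CPM in RC/RC mice 1 to 4. The lowest WT mouse was above the highest RC/RC mouse, and RC/RC mice 2 and 3 were lower than the other two. The log2 fold change was -2.03 ± 0.33 (SE), a level 0.245 times that of WT (adjusted p = 0.00444).

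*Calb1* encodes calbindin, a cytosolic calcium buffer of distal tubule cells, and had the largest fold change of the 9 genes in this comparison. Its levels were 663, 591, 243 and 467 CPM in WT mice and 142, 77.3, 74.8 and 142 CPM in RC/RC mice. WT mouse 3 was low, yet still above every RC/RC mouse. Expression changed by -2.17 ± 0.35 on the log2 scale, to 0.222 times the WT level (adjusted p = 0.00415).

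*Pvalb*, a marker of the early distal convoluted tubule, encodes parvalbumin, a calcium-binding protein as well. Its levels were low, at 23.0, 38.1, 16.0 and 23.3 CPM in WT mice and 6.80, 10.2, 11.2 and 9.99 CPM in RC/RC mice. The groups did not overlap, although WT mouse 2 was well above the other WT mice. It changed by -1.40 ± 0.26 on the log2 scale (adjusted p = 0.00855).

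*Wnk4* encodes a kinase that acts through SPAK to control the phosphorylation of the sodium-chloride cotransporter. It was at 178, 189, 193 and 189 CPM in WT mice and at 141, 109, 116 and 114 CPM in RC/RC mice. The fall was smaller than that of the other 3 genes, but the WT mice lay close together. *Wnk4* changed by -0.64 ± 0.12 on the log2 scale, to 0.641 times the WT level (adjusted p = 0.00782).

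*Trpm6*, the apical magnesium channel, was the distal convoluted tubule gene that did not pass the test. It was read at 13.0, 19.4, 8.35 and 16.9 CPM in WT mice and at 10.6, 5.61, 4.51 and 12.4 CPM in RC/RC mice. WT mouse 3 fell below RC/RC mice 1 and 4. The log2 fold change was -0.79 ± 0.36 (adjusted p = 0.175), with the largest standard error of the 9 genes. The lowest count of any of the 9 genes in a library was its 84 reads in an RC/RC mouse.

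Among the thick ascending limb genes, *Slc12a1*, the furosemide-sensitive sodium-potassium-chloride cotransporter, was at 1454, 1720, 1103 and 1162 CPM in WT mice and at 1379, 744, 728 and 694 CPM in RC/RC mice. RC/RC mouse 1 stood among the WT mice and the other 3 RC/RC mice stood below all of them. The log2 fold change was -0.62 ± 0.26 (adjusted p = 0.147). Without RC/RC mouse 1 it was -0.93 (adjusted p = 0.019), and the count of genes called among the 9 rose to 5.

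*Umod* was at 4010, 5106, 2891 and 3787 CPM in WT mice and at 3664, 2369, 2514 and 2801 CPM in RC/RC mice. Again RC/RC mouse 1 was highest in its group and lay within the WT range. On the log2 scale the difference was -0.48 ± 0.22 (adjusted p = 0.186). *Kcnj1*, the apical potassium channel ROMK that returns potassium to the lumen for the cotransporter, spread from 147 to 356 CPM in WT mice, with mice 1 and 2 high and mice 3 and 4 low, and from 163 to 232 CPM in RC/RC mice. *Bsnd*, barttin, the subunit that basolateral chloride channels need to work, was at 49.6 to 77.4 CPM in WT and 42.1 to 62.7 CPM in RC/RC mice. Log2 fold changes were -0.45 ± 0.29 for *Kcnj1* (adjusted p = 0.337) and -0.26 ± 0.17 for *Bsnd* (adjusted p = 0.327), and neither result shows that the levels were equal. *Slc12a1* and *Kcnj1* were higher in mice 1 and 2 than in mice 3 and 4 of every group, the division seen in *Slc22a6*, and its part in their spread was not tested. Within mice 1 and 2, and within mice 3 and 4, each RC/RC mouse was below each WT mouse for *Slc12a1* and *Umod*, which is a description with 2 mice a group and no test. It did not hold for *Kcnj1*, where RC/RC mouse 3 (174 CPM) was above WT mice 3 and 4 (147 and 170 CPM), or for *Bsnd*, where RC/RC mouse 3 (62.7 CPM) was above WT mouse 4 (49.6 CPM).

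**Figure D2:**
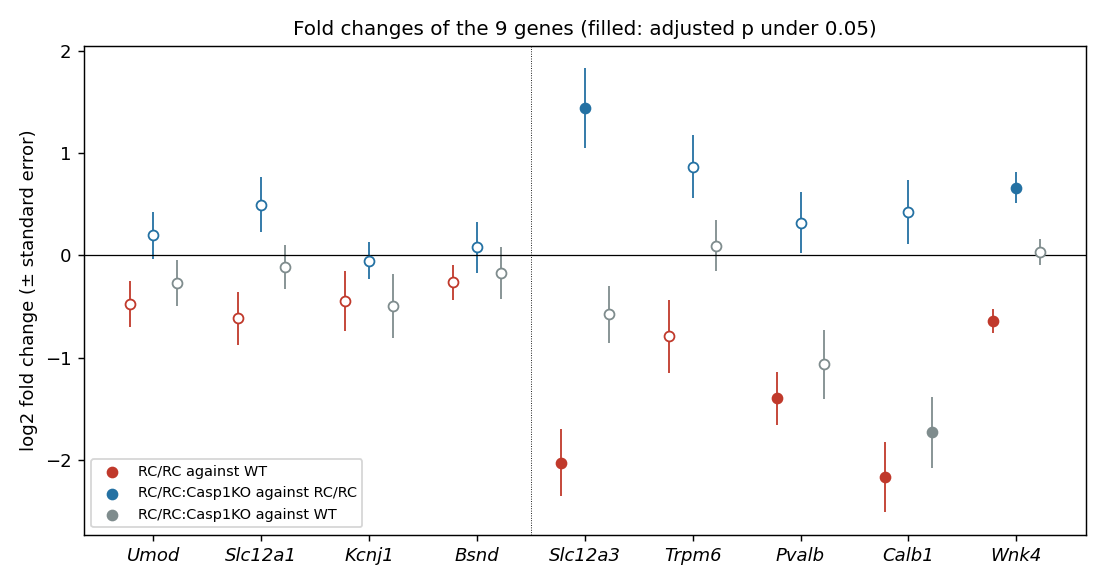
Log2 fold change (y axis) with its standard error for each of the 9 genes in the 3 comparisons, thick ascending limb genes left and distal convoluted tubule genes right of the dotted line. Filled points passed an adjusted p of 0.05 in edgeR; they are Slc12a3, Pvalb, Calb1 and Wnk4 in RC/RC against WT, Slc12a3 and Wnk4 in RC/RC:Casp1KO against RC/RC, and Calb1 in RC/RC:Casp1KO against WT.

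In RC/RC:*Casp1*KO relative to RC/RC kidneys, 2 of the 9 genes changed, *Slc12a3* and *Wnk4*, and both were higher. Of 15428 genes tested, 11.6% were called, 7.23% higher and 4.41% lower. The median log2 fold change was 0.66 over the distal convoluted tubule genes and 0.14 over the thick ascending limb genes, beside -0.03 over all genes. This comparison uses the same RC/RC mice as the one with WT, so a value by which RC/RC mice happened to be low enters both.

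*Slc12a3* was at 896, 796, 330 and 594 CPM in RC/RC:*Casp1*KO mice 1 to 4. Mice 1 and 2 reached the WT range, and mouse 3 was below the highest RC/RC mouse, so the groups overlapped. Within mice 1 and 2, and within mice 3 and 4, the knockout mice were higher. That division was seen in the values and is not in the labels, so this is a description and no test. The log2 fold change was 1.44 ± 0.39, a level 2.71 times that of RC/RC (adjusted p = 0.0454). *Wnk4* was at 212, 228, 158 and 167 CPM, above all RC/RC mice. Of all genes tested, 20.4% did not overlap between these groups, 11.8% being higher and 8.67% lower. Its log2 fold change was 0.66 ± 0.15, or 1.58 times the RC/RC level (adjusted p = 0.0275).

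Both calls depended on which mice were used. *Slc12a3* passed without RC/RC mouse 1 (adjusted p = 0.0268) or RC/RC:*Casp1*KO mouse 3 (0.039) and missed in the other 6 leave-one-out fits: its adjusted p was 0.11 without RC/RC mouse 2, 0.119 without RC/RC mouse 3, 0.0557 without RC/RC mouse 4, and 0.107, 0.114 and 0.0685 without RC/RC:*Casp1*KO mice 1, 2 and 4. *Wnk4* missed without RC/RC mouse 2 (adjusted p = 0.0688), RC/RC mouse 3 (0.0799), RC/RC:*Casp1*KO mouse 1 (0.0751) or RC/RC:*Casp1*KO mouse 2 (0.082). Calls over all genes also fell in those fits, from 1797 with all mice to 754, 438, 606 and 440 in that order. They numbered 1991 without RC/RC mouse 4 and 1407 without RC/RC:*Casp1*KO mouse 4, where *Slc12a3* missed and *Wnk4* did not. The fold changes themselves moved less, between 1.25 and 1.74 for *Slc12a3* and between 0.57 and 0.74 for *Wnk4*. Without RC/RC mouse 1, *Slc12a1* was called as well (log2 fold change 0.77, adjusted p = 0.0465), and without RC/RC mouse 4 *Trpm6* was (1.15, adjusted p = 0.039).

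The other 7 genes did not pass. *Trpm6* was at 17.4, 17.3, 11.6 and 14.9 CPM in RC/RC:*Casp1*KO mice, with a log2 fold change of 0.87 ± 0.31 (adjusted p = 0.0942). The groups overlapped through the lowest knockout mouse, mouse 3, which was below RC/RC mouse 4 (12.4 CPM). They thus overlapped within mice 3 and 4 as well. *Calb1* was at 198, 190, 99.7 and 102 CPM, with a log2 fold change of 0.43 ± 0.31 (adjusted p = 0.376), and *Pvalb* at 12.9, 11.3, 17.6 and 6.07 CPM, with 0.32 ± 0.30 (adjusted p = 0.495). Knockout mice 1 and 2 lay above every RC/RC mouse for *Calb1*, mice 3 and 4 within the RC/RC range, and for *Pvalb* the groups overlapped. *Slc12a1* was at 1646, 1394, 1020 and 948 CPM (0.50 ± 0.27, adjusted p = 0.236) and *Umod* at 4428, 3349, 2474 and 2822 CPM (0.20 ± 0.23, adjusted p = 0.59). Within mice 1 and 2, and within mice 3 and 4, each knockout mouse was above each RC/RC mouse for *Slc12a1*. That held for none of the other genes that did not pass, and it is a description and no test. *Kcnj1* (-0.05 ± 0.18) and *Bsnd* (0.08 ± 0.25) had fold changes smaller than their standard errors.

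In RC/RC:*Casp1*KO relative to WT kidneys, *Calb1* was the single gene of the 9 that was called, lower in the knockout. Of 15346 genes tested, 2.03% were called, 1.13% higher and 0.893% lower. All 4 knockout mice lay below all WT mice for *Calb1*, where 13.9% of genes did not overlap, 7.4% being higher and 6.54% lower. The log2 fold change was -1.73 ± 0.35, or 0.301 times the WT level (adjusted p = 0.0449). The call held in 1 of 8 leave-one-out fits, the fit without WT mouse 3 (adjusted p = 0.022). The adjusted p was 0.108, 0.107 and 0.0954 without WT mice 1, 2 and 4, and 0.0718, 0.0933, 0.0608 and 0.118 without RC/RC:*Casp1*KO mice 1 to 4. *Pvalb* had a log2 fold change of -1.07 ± 0.34 (adjusted p = 0.134) and *Slc12a3* of -0.58 ± 0.28 (adjusted p = 0.261). *Wnk4* (0.03 ± 0.13) and *Trpm6* (0.09 ± 0.25) were near zero difference, and the 4 thick ascending limb genes ranged from -0.49 to -0.12 with none called.

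The ratio of reads of a pair of genes within a mouse compares them without any scaling of libraries. A pair was set for each of the patterns above after the values had been seen, and the 6 comparisons were tested by exact two-sided permutation, for which the smallest p with 4 against 4 mice is 0.0286. *Slc12a3* reads per *Slc12a1* read set the distal convoluted tubule cotransporter against its thick ascending limb relative. The ratio was 0.741 ± 0.185 (SD, n = 4) in WT, 0.271 ± 0.101 in RC/RC and 0.516 ± 0.133 in RC/RC:*Casp1*KO mice. Every RC/RC mouse was below every WT mouse, with a log2 difference of -1.49 ± 0.31 (SE; exact permutation p = 0.0286, adjusted over the 6 comparisons 0.0571). The difference of RC/RC:*Casp1*KO from RC/RC was 0.96 ± 0.33 (exact permutation p = 0.0571, adjusted 0.0857), and from WT it was -0.53 ± 0.28 (exact permutation p = 0.0857, adjusted 0.103).

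*Calb1* reads per *Slc12a3* read set the calcium buffer against the cotransporter. The ratio was 0.497 ± 0.170 in WT and 0.479 ± 0.0744 in RC/RC mice, and 0.234 ± 0.0537 in RC/RC:*Casp1*KO mice. The highest knockout mouse, at 0.302, was just below the lowest WT mouse, at 0.307, and below the lowest RC/RC mouse, at 0.369. The log2 difference of RC/RC:*Casp1*KO was -1.05 ± 0.21 from RC/RC and -1.05 ± 0.31 from WT, each with an exact permutation p of 0.0286 and an adjusted value of 0.0571. No ratio passed 0.05 after adjustment, for which at least 4 of the 6 comparisons would have had to reach the smallest p. As the pairs were chosen from the patterns they were tested for, these p-values are no independent support for them.

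**Figure D3:**
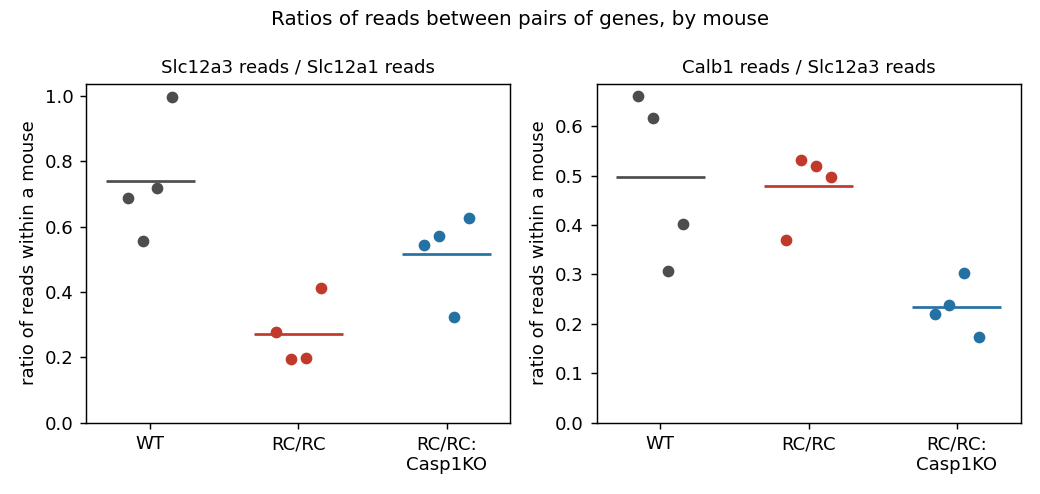
Ratio of Slc12a3 reads to Slc12a1 reads (left) and of Calb1 reads to Slc12a3 reads (right) in each mouse (points), with the group mean as a line; y axes are linear from 0 and not corrected for gene length. The RC/RC mice lie below the WT mice on the left, and the RC/RC:Casp1KO mice lie below both other groups on the right.

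Other genes of the same segments and pathways were counted from lists. In RC/RC relative to WT, 2 of 12 tested other thick ascending limb genes were lower and none higher. They included *Egf*, the precursor of epidermal growth factor and the most abundant gene of the list (log2 fold change -1.27, adjusted p = 0.0445). The list's median was -0.25. *Egf* was called in 2 of 8 leave-one-out fits, with adjusted p between 0.0174 and 0.121.

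Of 11 tested genes of calcium and magnesium handling, 3 were lower and none higher, with a median of -0.24. They were *Slc8a1*, the basolateral sodium-calcium exchanger (-1.40, adjusted p = 0.0453), *Kl*, klotho, the co-receptor for FGF23 (-0.90, adjusted p = 0.0355), and *Cnnm2*, a basolateral protein of magnesium balance (-0.67, adjusted p = 0.0121). *Cnnm2* was called in all 8 leave-one-out fits and *Slc8a1* and *Kl* in 2 each. *Fxyd2*, the sodium pump's gamma subunit and the most abundant gene of the list, was at 0.01 ± 0.22 (adjusted p = 0.982).

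Of the 13 genes of the WNK and SPAK pathway, 3 were lower and none higher, with a median of -0.16. *Klhl3*, the adaptor that hands WNK kinases to a ubiquitin ligase, was at 42.8, 49.5, 29.0 and 36.7 CPM in WT mice and at 22.2, 9.16, 8.64 and 16.5 CPM in RC/RC mice (-1.48, adjusted p = 0.0133). *Sgk1*, an aldosterone-induced kinase, had -1.22 (adjusted p = 0.00569) and *Wnk1* -0.80 (adjusted p = 0.0336). *Klhl3* and *Sgk1* were called in all 8 leave-one-out fits and *Wnk1* in 3. In the 7 other settings *Klhl3* was called in 7, and *Sgk1* and *Wnk1* in 6 each. *Hsd11b2*, which protects the mineralocorticoid receptor from glucocorticoids and was the most abundant gene of the list, was at 0.74 ± 0.24 (adjusted p = 0.0762).

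None of the 4 genes of the basolateral potassium channels and sodium pump was called, and their median was -0.69. Of 10 transcription factors of the segments, *Emx1* was lower (-0.54, adjusted p = 0.0412), with its call held in 1 of 8 leave-one-out fits. No gene of these 5 lists was called in RC/RC:*Casp1*KO relative to RC/RC or relative to WT, although *Cnnm2* (-0.49, adjusted p = 0.0535) came near in the latter.

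**Figure D4:**
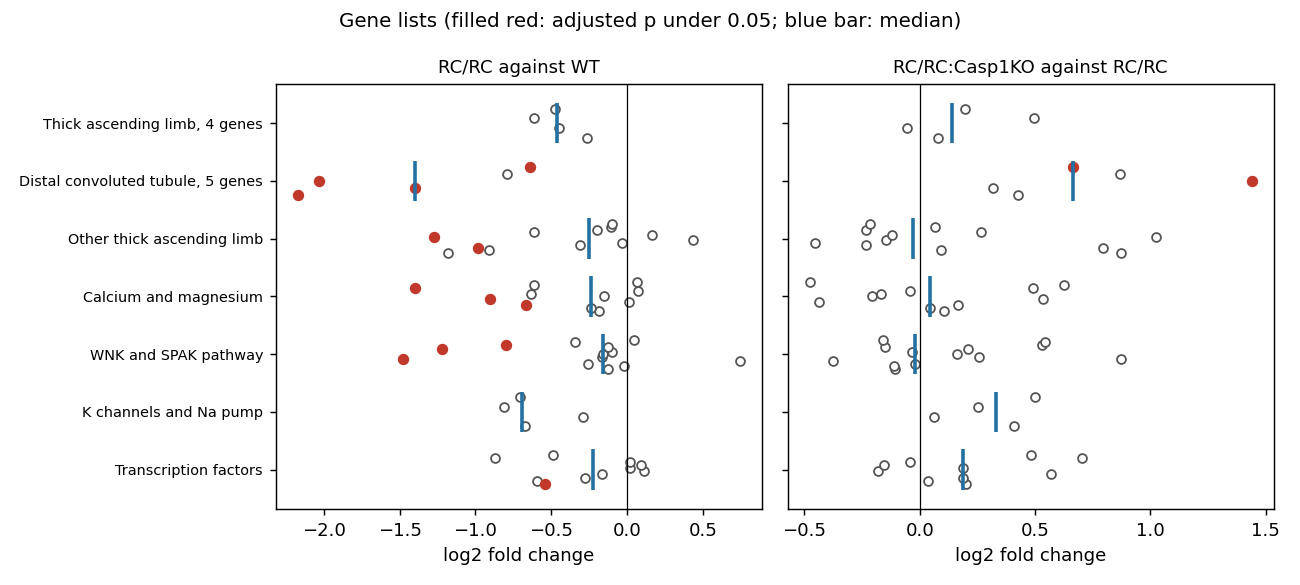
Log2 fold changes (x axes) of the tested genes of the 2 member lists and 5 further lists in RC/RC against WT (left) and RC/RC:Casp1KO against RC/RC (right), 1 point per gene, filled red at an adjusted p under 0.05, with the list's median as a blue bar. On the left all red points lie below 0, and on the right the red points are Slc12a3 and Wnk4.

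Genes with the pattern most like *Umod* and *Slc12a3* over the 12 mice were picked by the Pearson correlation of log2 CPM among 11341 genes with a mean of at least 5 CPM. They are given as a description, as the points share libraries and groups. For *Umod* they were *Fam175b* (r = 0.977), *Fam81a* (0.959), *Ptgfr*, a prostaglandin receptor (0.952), *Slc22a23* (0.942) and *Tmem72* (0.939). For *Slc12a3* they were *Tsc2*, the tuberous sclerosis gene that restrains mTOR complex signalling (0.974), *Shroom4* (0.973), the transcription factors *Tfcp2l1* (0.966) and *Lhx1* (0.964), and *Klhl3* (0.964). Mean levels of *Lhx1* were 34.7, 16.8 and 30.8 CPM in WT, in RC/RC and in double-mutant mice.

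Markers of other cell types moved in the same comparisons. In RC/RC relative to WT, 5 of 5 fibroblast and pericyte markers, 6 of 6 injured tubule markers, 4 of 5 macrophage markers and 5 of 5 lymphocyte markers were higher. Summed fibroblast and pericyte markers, of which *Dcn* was the most abundant by FPKM, were at 157 to 225 CPM in WT, 607 to 1431 CPM in RC/RC and 241 to 536 CPM in RC/RC:*Casp1*KO mice. Summed injured tubule markers, with *Krt8* the most abundant by FPKM, were at 123 to 174 CPM, 347 to 467 CPM and 182 to 337 CPM, and within them *Havcr1* rose from at most 2.86 CPM in WT to at least 40.3 CPM in RC/RC mice (adjusted p = 0.000393). Both sums thus separated RC/RC from WT mice completely. Macrophage sums were at 116 to 137 CPM, 230 to 325 CPM and 136 to 269 CPM. Their most abundant gene by FPKM was *C1qa*, but the largest part of the CPM in each group came from *Csf1r*, the marker not called, with means of 70.3, 99.7 and 111 CPM. Lymphocyte sums, with *Cd3g* the most abundant by FPKM over the groups, were low throughout, at 2.69 to 4.67 CPM in WT and 8.88 to 16.6 CPM in RC/RC mice. The lymphocyte calls in RC/RC relative to WT held in 3 of 8 leave-one-out fits for *Cd3g* and in 2 for *Cd79b*. Relative to RC/RC, the knockout mice had 3 of 5 fibroblast and pericyte markers lower (*Col1a1*, *Col3a1* and *Dcn*), 2 of 5 macrophage markers (*C1qa* and *C1qb*), 1 of 5 lymphocyte markers (*Cd79b*) and 1 of 6 injured tubule markers (*Krt8*), with none higher. Of these calls, *Dcn* held in 8 of 8 leave-one-out fits, *Krt8* in 2, *Col1a1* and *Col3a1* in 3 each, *Cd79b* in 2, *C1qa* in 1 and *C1qb* in 1.

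Proximal tubule markers were lower in RC/RC and higher with the knockout by their medians, -0.999 relative to WT and 1.02 relative to RC/RC, as the distal convoluted tubule genes were (-1.40 and 0.66). All 6 had log2 fold changes below 0 in the former comparison and above 0 in the latter. Of these 6 markers 2 were called lower in RC/RC, *Cubn* (-1.08, adjusted p = 0.0319) and the glucose transporter *Slc5a2* (-1.23, adjusted p = 0.0199), and the sum, led by *Slc34a1* in CPM and FPKM, was at 7937 to 12717 CPM in WT and 3427 to 8755 CPM in RC/RC mice. With Caspase-1 absent from cystic kidneys, the endocytic receptors *Lrp2* (1.52 relative to RC/RC, adjusted p = 0.0144) and *Cubn* (1.34, adjusted p = 0.0146) were higher, and the sum was at 9502 to 11756 CPM. No marker of principal cells, intercalated cells or endothelium was called in any comparison, and 1 of 5 podocyte markers, *Nphs1*, was lower in RC/RC (-0.62, adjusted p = 0.0372). These calls in RC/RC relative to WT held in 4 of 8 leave-one-out fits for *Cubn*, 6 for *Slc5a2* and 2 for *Nphs1*. *Avpr2*, a principal cell marker, and *Cldn14*, of the other thick ascending limb genes, were the listed genes at 0 reads in some mouse. Principal cell sums, led by *Aqp2* in CPM and FPKM, were nonetheless at 353 to 692 CPM in WT and 757 to 1192 CPM in RC/RC mice. Intercalated cell sums, with *Atp6v1g3* the most abundant by FPKM over the groups, were at 247 to 633 CPM and 204 to 275 CPM. The largest part of the WT CPM came from *Slc4a1*, at 281 CPM in WT mouse 1 and 61.1 to 93.0 CPM in the other WT mice. Of the 5 intercalated cell markers, 4 had log2 fold changes below 0 in RC/RC relative to WT, and *Foxi1* was at 0.34. Podocyte sums, led by *Podxl* in CPM and FPKM, were at 407 to 648 CPM and 406 to 586 CPM, and endothelial sums, with *Pecam1* the most abundant by FPKM, at 318 to 402 CPM and 369 to 510 CPM. Beyond *Dcn*, which was higher, no listed marker was called in RC/RC:*Casp1*KO relative to WT. The part of these cell type differences in the values of the 9 genes was not tested.

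**Figure D5:**
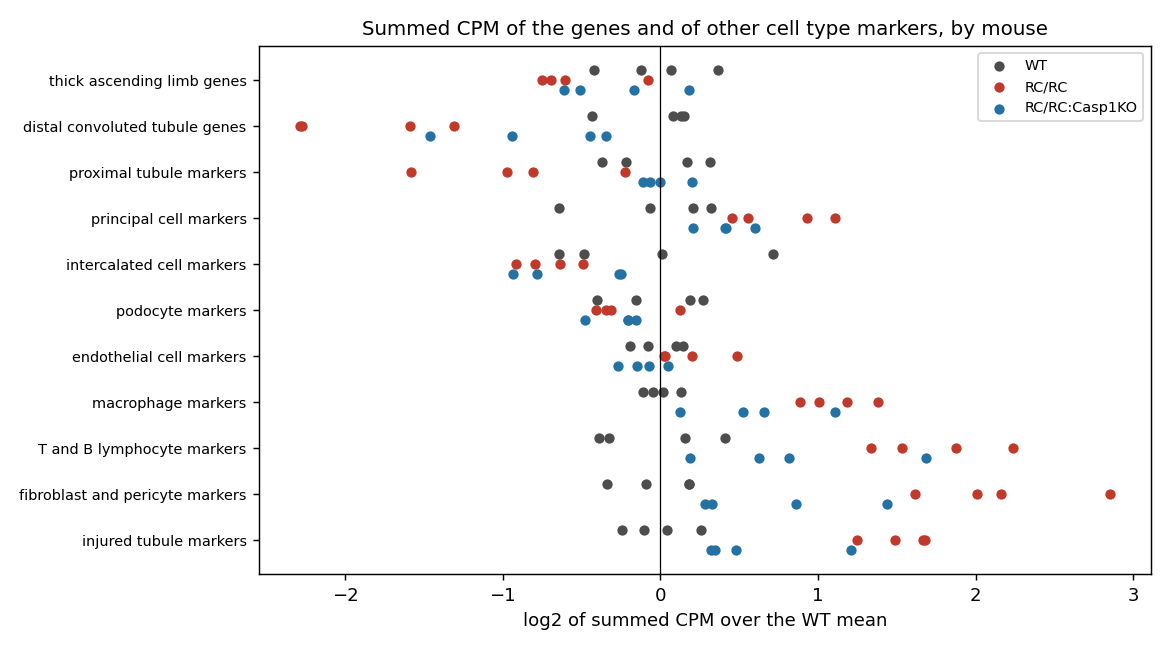
Log2 of the summed CPM of each list over its WT mean (x axis) in each mouse (points), for the thick ascending limb genes, the distal convoluted tubule genes and 9 lists of cell type markers. RC/RC mice lie left of the WT mice for the distal convoluted tubule genes and right of them for principal cell, macrophage, lymphocyte, fibroblast and injured tubule markers.

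RC/RC:*Casp1*KO mouse 4 stood apart from its group in injured tubule markers, at 337 CPM against 182 to 203 CPM in mice 1 to 3. It was also the highest knockout mouse in fibroblast and pericyte (536 CPM), macrophage (269 CPM) and lymphocyte sums (11.3 CPM), and so set the top of those ranges. Without it, *C1qa* relative to WT went from 0.53 to -0.012 on the log2 scale. Its *Slc12a3* (594 CPM) and *Wnk4* (167 CPM) lay inside the range of the other knockout mice, as did its *Umod*, *Trpm6* and *Calb1*. Mouse 4 was the lowest knockout mouse for *Pvalb* (6.07 CPM, below every RC/RC mouse), *Slc12a1* (948 CPM), *Kcnj1* (148 CPM) and *Bsnd* (39.6 CPM). Without mouse 4, the log2 fold change relative to RC/RC was 1.49 for *Slc12a3* (adjusted p = 0.0685) and 0.73 for *Wnk4* (adjusted p = 0.0291). Relative to WT, *Calb1* was at -1.59 without it (adjusted p = 0.118).

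Genes on the opposite strand overlap *Slc12a1* (*Gm14002*) and *Wnk4* (*Gm11615*), and the use of strand in counting is not given in the sources used here. Over the 12 mice they had 159 reads, or 0.0522% of those of *Slc12a1*, and 427 reads, or 0.994% of those of *Wnk4*.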

How the data were processed

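Kidney RNA was DNase treated, selected on poly(A) and sequenced; the deposited table of raw counts per gene was made by the authors' sequencing provider, with CASAVA 1.8, STAR and mm10 named in the submitters' processing notes. The counting tool, annotation release and strand setting are not given in the sources used here. The table's FPKM, group means, fold changes and p-values from the authors' own comparisons were not used. Columns carry mouse numbers and were placed in groups by the study's strain names, so replicate number and sex were not assigned to single columns.

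Counts were tested pairwise (8 mice) with edgeR 4.0.16 in R 4.3.3 (TMM, filterByExpr, glmQLFTest, Benjamini-Hochberg, adjusted p under 0.05), and the procedure was tested on simulated data. Alternatives were DESeq2 1.42.0, other scalings and filters, 1 fit of all 12 mice, and leaving out each mouse. Log2 CPM for likeness used a prior count of 1. FPKM values here were computed from the counts. Within groups, replicate pairs differed by more than sampling noise. Permutation tests used scipy 1.17.1. Of 26819 gene symbols shared with the RefSeq table (GRCm38.p6), 96.9% had a start or end within 1000 bases.

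Named were the 9 genes, *Casp1*, *Pkd1*, and of each pathway list up to 4 called genes with the largest fold change plus the most abundant; some of these, and 1 of the motifs searched, are not reported here. Marker genes were named as the most abundant of a list or after their values were seen. Members, lists and tests were chosen with earlier results of these data known. For promoters, up to 3 called genes with most comparisons called were to be shown.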

Additional observations from a re-analysis of the deposited data

Results flagged for a closer look

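In 3 of 66 groups of 4 mice examined (the 9 genes, the 9 marker sums, the 2 ratios, the mitochondrial share and the total reads, by group), the highest or lowest mouse was separated from the others by a gap that took up most of the group's range; chance gives about 1 in 20. *Slc12a1* in RC/RC mouse 1 was at 1379 CPM against 694 to 744 CPM in the other 3 RC/RC mice. The summed podocyte markers in RC/RC mouse 2 were at 586 CPM against 406 to 433 CPM. The summed injured tubule markers in RC/RC:*Casp1*KO mouse 4 were at 337 CPM against 182 to 203 CPM.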

How the results depend on the processing

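No paired analysis was possible because the columns of the table carry mouse numbers and not the replicate numbers or sexes of the labels. The division of mice 1 and 2 from mice 3 and 4 was seen in the values, and no setting had a term for it. Whether such a term would change the calls was not tested. In RC/RC relative to WT the 4 genes were called lower in each of the 7 other settings, and 4 to 5 genes in the fits that left out a mouse. For RC/RC:*Casp1*KO relative to RC/RC, library size alone left 1 call (*Wnk4*), DESeq2 gave 3 and leaving out a mouse 0 to 3. For RC/RC:*Casp1*KO relative to WT, DESeq2 gave 2 calls, library size alone 0, a minimum of 10 counts in every mouse 0, and leaving out a mouse 0 to 1. Among all genes, calls numbered 1971 in RC/RC relative to WT (DESeq2 3027, leaving out a mouse 1162 to 2440), 1797 in RC/RC:*Casp1*KO relative to RC/RC (DESeq2 3172, library size alone 993, leaving out a mouse 438 to 2789) and 311 in RC/RC:*Casp1*KO relative to WT (DESeq2 1387, minimum of 10 counts 167, leaving out a mouse 108 to 547). The cause was not tested. With library size alone the split of higher against lower calls was 1634 to 263, 814 to 179 and 281 to 71, against 1487 to 484, 1116 to 681 and 174 to 137, and the median of all genes in RC/RC:*Casp1*KO relative to WT moved from 0.01 to 0.14.

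Over the named genes under all alternatives, and the 2 ratios leaving out a mouse, 1784 values kept their direction and side of the threshold, 157 kept their direction but lost the call, 48 gained it and 37 changed sign, all of the last uncalled; with 3 against 4 mice the smallest exact permutation p is 0.0571, so no ratio could pass 0.05 there. In RC/RC:*Casp1*KO relative to WT, *Slc12a1* was at 0.023 and *Pecam1* at 0.10 with library size alone. *Fxyd2* in RC/RC relative to WT was at -0.0067 with DESeq2 and at -0.00486 with RLE factors. Leaving out a mouse, log2 values ranged as follows. In RC/RC relative to WT, *Pkd1* ranged from -0.078 to 0.16, *Fxyd2* from -0.17 to 0.15, *Atp6v1g3* from -0.52 to 0.093 and the ratio of *Calb1* to *Slc12a3* from -0.21 to 0.16. In RC/RC:*Casp1*KO relative to RC/RC, *Kcnj1* ranged from -0.21 to 0.049, *Bsnd* from -0.11 to 0.23, *Sgk1* from -0.54 to 0.48, *Podxl* from -0.023 to 0.17 and *Slc22a6* from -0.056 to 0.81. In RC/RC:*Casp1*KO relative to WT, *Slc12a1* ranged from -0.28 to 0.016, *Trpm6* from -0.12 to 0.27, *Wnk4* from -0.061 to 0.11, *Pecam1* from -0.096 to 0.029, *C1qa* from -0.012 to 0.72 and *Slc22a6* from -0.54 to 0.097.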
